A study of Mus musculus with 8 samples.

Results

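This comparison sets *FAK*-/- cells that re-express FAK impaired in nuclear localization (FAK-nls) against the *FAK*-/- cells themselves, called FAK-null here. It rests on 4 ATAC-seq libraries, 2 of each line. The 24383 peaks with the highest −log10 p in each library were merged into 35286 regions, and a region counted as called in a library when a peak of that library overlapped it. Of these, 1835 regions (5.20%) had a call in each FAK-nls library and none in FAK-null cells, and are named nls-only. Another 2051 regions (5.81%) had a call in each FAK-null library and none in FAK-nls cells, and are named null-only. Together the 3886 regions are described as private regions, and the 15371 regions called in all 4 libraries as shared regions. The sets are defined by calls in these same libraries, so their sizes and ranks are descriptions and carry no test.

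The cells are cutaneous squamous cell carcinoma (SCC) cells with Ha-Ras as the driver gene, grown from tumours of K14CreER FAKflox/flox FVB mice that had received DMBA and TPA. FAK was deleted in culture with 4-hydroxytamoxifen, a step that every line shares. The FAK-null libraries are labelled as control, and no construct is named for them. FAK-nls cells carried a retroviral construct with the substitutions R177A, R178A, R190A, R191A, R216A and R218A. The 4 other libraries of the series are from FAK-WT cells and from kinase-deficient FAK-kd cells (K454R), 2 libraries each, and were used only to look up the private regions. According to the study's methods the constructs were put into a *FAK*-/- clone and the cells were selected with hygromycin. The effects of FAK-nls, of retroviral insertion and selection, and of drift between cultures of a clone therefore cannot be told apart in a single pair of lines.

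Focal adhesion kinase, encoded by *Ptk2*, is a tyrosine kinase and scaffold that integrins and growth factor receptors activate at sites where the cell grips its matrix. It also enters the nucleus through basic residues of its FERM domain, where it binds transcription factors. In ATAC-seq a transposase cuts open DNA, so called peaks mark promoters, which are open in most cells, and distal elements, where factors such as AP-1, SOX, RUNX and CTCF bind.

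The private regions are shown first by sequence, because the report turns on where they lie and which motifs they hold. Each window is the central 300 bp of a region, read from GRCm38 (mm10) on the + strand. Capitals mark exact matches on either strand to AP-1 (TGACTCA or TGAGTCA), SOX (CCATTGTT), RUNX (TGTGGTT) or the CTCF consensus. From the nls-only set, the strongest region, near *Esp1* (chr17:40732740-40733383), holds none of these letters in the printed window but SOX letters in its central 500 bp, whereas the third, in an intron of *Mctp1* (chr13:76639624-76640164), holds an AP-1 match. The regions near *Rnd3* (chr2:50954277-50954756) and *Klf5* (chr14:99456645-99457162) are the strongest nls-only regions outside promoters with a SOX match in this window.
Esp1: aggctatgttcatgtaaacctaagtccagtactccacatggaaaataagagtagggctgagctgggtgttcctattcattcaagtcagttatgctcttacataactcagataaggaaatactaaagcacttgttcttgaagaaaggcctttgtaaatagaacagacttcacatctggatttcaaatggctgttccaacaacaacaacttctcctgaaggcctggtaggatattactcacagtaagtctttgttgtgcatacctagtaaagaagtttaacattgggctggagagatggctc
Mctp1: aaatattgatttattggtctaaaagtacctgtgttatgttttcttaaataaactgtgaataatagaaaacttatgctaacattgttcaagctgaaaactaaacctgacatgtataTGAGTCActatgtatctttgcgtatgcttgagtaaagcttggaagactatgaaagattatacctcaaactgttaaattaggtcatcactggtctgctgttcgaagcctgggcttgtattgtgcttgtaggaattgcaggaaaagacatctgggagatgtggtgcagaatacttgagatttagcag
Rnd3: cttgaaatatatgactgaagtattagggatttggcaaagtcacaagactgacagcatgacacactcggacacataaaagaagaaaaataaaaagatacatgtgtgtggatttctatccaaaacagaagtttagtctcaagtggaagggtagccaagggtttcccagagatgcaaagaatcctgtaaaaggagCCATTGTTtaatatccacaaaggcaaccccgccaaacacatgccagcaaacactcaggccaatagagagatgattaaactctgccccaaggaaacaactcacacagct
Klf5: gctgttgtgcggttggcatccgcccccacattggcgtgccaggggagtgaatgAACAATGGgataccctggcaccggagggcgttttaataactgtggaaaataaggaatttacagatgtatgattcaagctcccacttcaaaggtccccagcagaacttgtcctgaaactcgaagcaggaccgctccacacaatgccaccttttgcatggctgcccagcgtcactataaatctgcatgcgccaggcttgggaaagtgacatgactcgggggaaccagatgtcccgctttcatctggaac

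From the null-only set, the strongest region, in an intron of *Col22a1* (chr15:71843636-71844096), holds an AP-1 match, and that near *Knop1* (chr7:118908741-118909403) holds an AP-1 and a SOX match. The regions near *Aaed1* (chr13:64306076-64306418) and *Lrig3* (chr10:125994915-125995235) are the strongest null-only regions outside promoters with a CTCF match in this window, and the former also holds an AP-1 match.
Col22a1: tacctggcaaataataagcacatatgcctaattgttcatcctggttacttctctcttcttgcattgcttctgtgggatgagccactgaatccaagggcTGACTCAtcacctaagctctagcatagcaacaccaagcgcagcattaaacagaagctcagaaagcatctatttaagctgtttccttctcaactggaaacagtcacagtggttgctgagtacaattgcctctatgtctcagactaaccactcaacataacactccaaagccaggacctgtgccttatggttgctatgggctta
Knop1: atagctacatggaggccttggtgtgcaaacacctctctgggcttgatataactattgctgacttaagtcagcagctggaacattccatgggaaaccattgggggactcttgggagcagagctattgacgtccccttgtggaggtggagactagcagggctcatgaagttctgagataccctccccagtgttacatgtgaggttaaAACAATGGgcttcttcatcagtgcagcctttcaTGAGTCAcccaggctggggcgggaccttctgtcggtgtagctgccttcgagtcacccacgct
Aaed1: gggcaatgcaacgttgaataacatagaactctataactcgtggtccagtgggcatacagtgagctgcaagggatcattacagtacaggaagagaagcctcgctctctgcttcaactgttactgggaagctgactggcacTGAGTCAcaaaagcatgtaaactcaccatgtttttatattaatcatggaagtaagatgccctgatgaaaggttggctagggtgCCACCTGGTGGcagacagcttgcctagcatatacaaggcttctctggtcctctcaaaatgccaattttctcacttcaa
Lrig3: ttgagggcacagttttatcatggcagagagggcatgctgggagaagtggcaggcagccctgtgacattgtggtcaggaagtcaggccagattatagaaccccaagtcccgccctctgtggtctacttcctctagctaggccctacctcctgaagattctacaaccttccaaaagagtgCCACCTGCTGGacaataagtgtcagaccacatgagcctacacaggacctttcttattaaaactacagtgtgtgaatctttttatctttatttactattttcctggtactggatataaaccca

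The lists differ in length, which bears on every comparison. On chromosomes 1 to 19, X and Y, the FAK-nls lists held 24383 and 24959 peaks and the FAK-null lists 43136 and 35236. The median pileup of the 24383 strongest peaks was 8.94 and 8.91 reads in the FAK-nls libraries, and 17.05 and 14.21 reads in the FAK-null libraries. The lists hold no read counts, so depth could not be read from them. Pileup describes the signal at these peaks, which need not follow the number of mapped reads. Mapped reads and duplication per library, which the study's supplement gives, were not used here. Taking equal numbers of peaks equalises the number of calls and not the depth or signal behind them. The last peak kept had a −log10 p of 3.36 and 3.77 in FAK-nls, and of 6.13 and 5.17 in FAK-null. Beyond that rank the FAK-null lists held 18753 and 10853 further peaks, whereas the FAK-nls lists held 0 and 576. The part of depth in the results below was not tested. Most defining promoters of squamous epithelium were not called: of 10 such marker genes, promoters were called for 1 and 1 in the FAK-null and for 2 and 1 in the FAK-nls libraries, with *Krt5*, *Krt14*, *Trp63* and *Cdh1* called in none. Of 10 fibroblast markers, promoters were called for 4 and 4 in FAK-null and for 5 and 4 in FAK-nls libraries, among them *Col1a2*, *Pdgfra* and *Pdgfrb* but not *Thy1*, *Dcn*, *Lum*, *Fap* or *Dpt*. Of 7 melanocyte markers 2 were called in every library (*Mitf* and *Pmel*), while no simple epithelial or endothelial promoter was, and 1 of 10 immune promoters (*Csf1r*) was called in FAK-nls replicate 2 alone. These promoters thus gave no clear match to any of the lists. Of 10 housekeeping promoters, 9 and 9 and then 10 and 10 were called.

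Libraries of a line shared more regions than libraries of different lines. The Jaccard index, here the regions called in both libraries divided by those called in either, was 0.700 for the FAK-null pair and 0.674 for the FAK-nls pair, against 0.596 to 0.617 for the 4 pairs between lines. Regions called in both libraries of a line and in neither of the other (1835 and 2051) outnumbered those called in 1 library of each line alone, of which there were 482 to 517 for each of the 4 combinations. They were, however, no more frequent than regions called in a single library, of which there were 2555 and 2258 in FAK-nls and 2155 and 2066 in FAK-null cells. Their near-equal numbers depended on the choice of peaks. With all deposited peaks there were 347 nls-only and 7278 null-only regions, and at a minimum −log10 q of 3 there were 193 and 6211. When 50% of a region had to be covered, there were 1510 and 3741. With 2 libraries against 2 there are 6 ways to divide them, and no two-sided exact permutation test can go below p = 0.333, so shares and counts per library were compared between the lines with no test, and only the graded comparison of shared regions below was tested across regions.

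**Figure D1:**
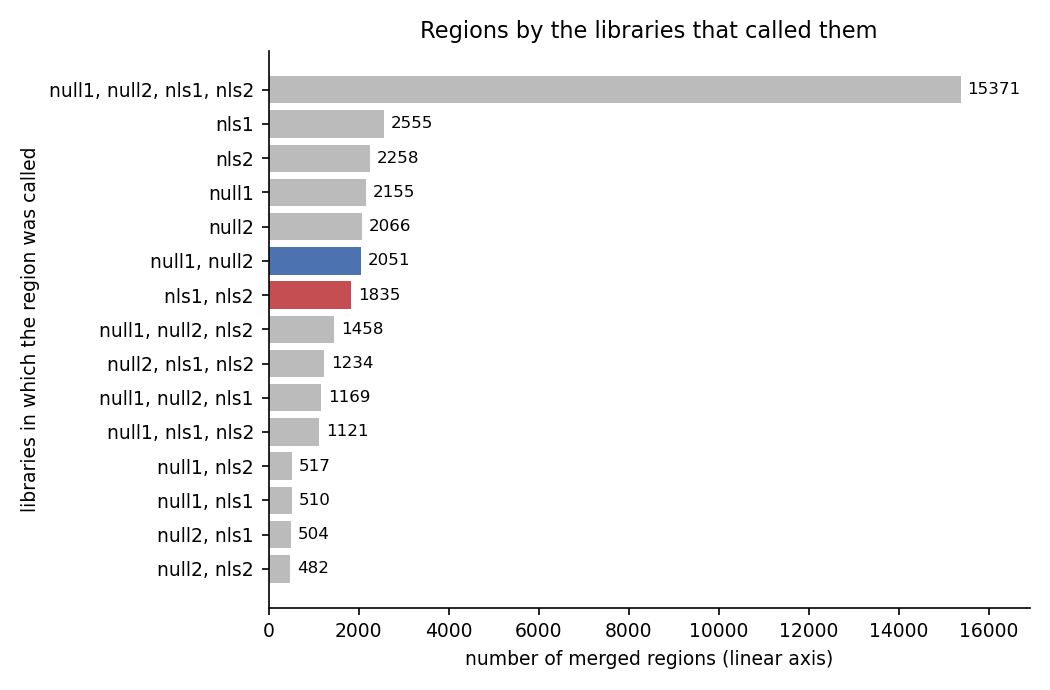
Number of merged regions by the libraries that called them, with null1 and null2 for the FAK-null replicates and nls1 and nls2 for the FAK-nls replicates. The 1835 nls-only regions (red) and 2051 null-only regions (blue) stand between the single-library patterns (2066 to 2555) and the mixed pairs (482 to 517).

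Most nls-only regions were not closed in FAK-null cells. A weaker peak, beyond rank 24383, overlapped 77.8% of them in FAK-null replicate 1 and 58.9% in replicate 2, at median ranks of 31281 and 28689. Only 336 of the 1835 (18.3%, 95% Wilson interval 16.6 to 20.1) had no peak of any strength in either FAK-null list. The same question cannot be put to the null-only regions, since the list of FAK-nls replicate 1 ends at the rank used. In replicate 2, whose list goes on for 576 peaks, 39 null-only regions (1.90%) had a weaker peak. Private regions also ranked towards the weaker end of the 24383 peaks: the median rank of nls-only regions was 16975 and 17507 in the FAK-nls libraries, and that of null-only regions 17084 and 17183 in the FAK-null libraries. In 7 nls-only and 13 null-only regions the weaker of the 2 ranks was within the top 5000.

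The strongest nls-only region lay between genes near *Esp1*, which encodes a peptide pheromone. It had ranks of 3724 and 2281 in the FAK-nls libraries with fold enrichments over local background of 5.57 and 6.30, a rank of 40718 (3.17) in FAK-null replicate 1 and no peak in replicate 2. Next came a region upstream of *Ptbp2*, which encodes a splicing regulator (chr3:120000033-120000646), at ranks 3488 and 4058 in FAK-nls against 27051 and 28622 in FAK-null cells. The intronic region of *Mctp1*, which encodes a calcium-binding membrane protein, had ranks of 2269 and 4081 in FAK-nls cells, 39635 in FAK-null replicate 1 and no peak in replicate 2. In all 3 regions the FAK-nls libraries stood far inside the cutoff and the FAK-null libraries beyond it.

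The others of the top 10 lay near *Tenm4*, which encodes a teneurin, *Tcf7l2*, which encodes a transcription factor of the Wnt pathway, *Il1rapl1*, *Depdc1a*, *Htr1d*, *Tmprss2* and *Spsb1*. At *Tcf7l2* (chr19:55712773-55713203) the ranks were 4140 and 4046 in FAK-nls cells, against 29929 and no peak in FAK-null cells. The *Tmprss2* region (chr16:97659413-97659714), near a gene for a membrane serine protease, is the only one of the 10 without any FAK-null peak. It ranked 4819 and 5617 in FAK-nls cells, had no peak in either FAK-WT list or in FAK-kd replicate 1, and ranked 37222 in FAK-kd replicate 2. The *Il1rapl1* region, at ranks 4516 and 2833 in FAK-nls cells, was by contrast called in every FAK-WT and FAK-kd library, at ranks between 2060 and 5453.

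Of the 336 nls-only regions with no FAK-null peak, the strongest after *Tmprss2* lay near *Rnd3* with ranks of 5650 and 5919. It was followed by regions in introns of *Mecom*, which encodes the transcription factor EVI1 (7246 and 6373), at *Setd3*, which encodes the actin histidine methyltransferase (8273 and 3778), and near *Catsperb*, which encodes a sperm calcium channel subunit (8722 and 2472). The *Setd3* region (chr12:108112881-108113377) was also called in all 4 FAK-WT and FAK-kd libraries, at ranks 17051 to 19131. The *Rnd3* and *Catsperb* regions were called in none of these.

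The strongest null-only region lay in an intron of *Col22a1*, which encodes a collagen of tissue junctions. It had ranks of 2631 and 2219 in the FAK-null libraries with fold enrichments of 6.59 and 6.71, and no peak in either FAK-nls list. It was called in FAK-WT cells at ranks 5047 and 2187 and in FAK-kd cells at 8914 and 16503. The region upstream of *Enpp1*, which encodes an ectonucleotide pyrophosphatase (chr10:24739026-24739564), ranked 2586 and 3144 in FAK-null cells. The third lay at the promoter of *Apbb1ip* (chr2:22774084-22774653), which encodes RIAM, the adaptor that links Rap to talin in integrin activation. It ranked 2034 and 3169 in FAK-null, 15903 and 1521 in FAK-WT, and 14171 and 16444 in FAK-kd cells, with no peak in the FAK-nls lists.

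The rest of the top 10 lay near *Knop1*, *Plpp3*, *Tm4sf1*, *Inpp5a*, *Shld2*, *Diaph1* and *Sft2d1*. *Diaph1* encodes a formin that nucleates actin, and its intronic region ranked 4280 and 4431 in FAK-null, 2854 and 10879 in FAK-WT and 3035 and 9190 in FAK-kd cells. All 10 of these regions lacked a peak in the FAK-nls lists, and 9 of them were called in all 4 FAK-WT and FAK-kd libraries. The exception was the *Enpp1* region, which ranked 34201 in FAK-WT replicate 2.

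**Figure D2:**
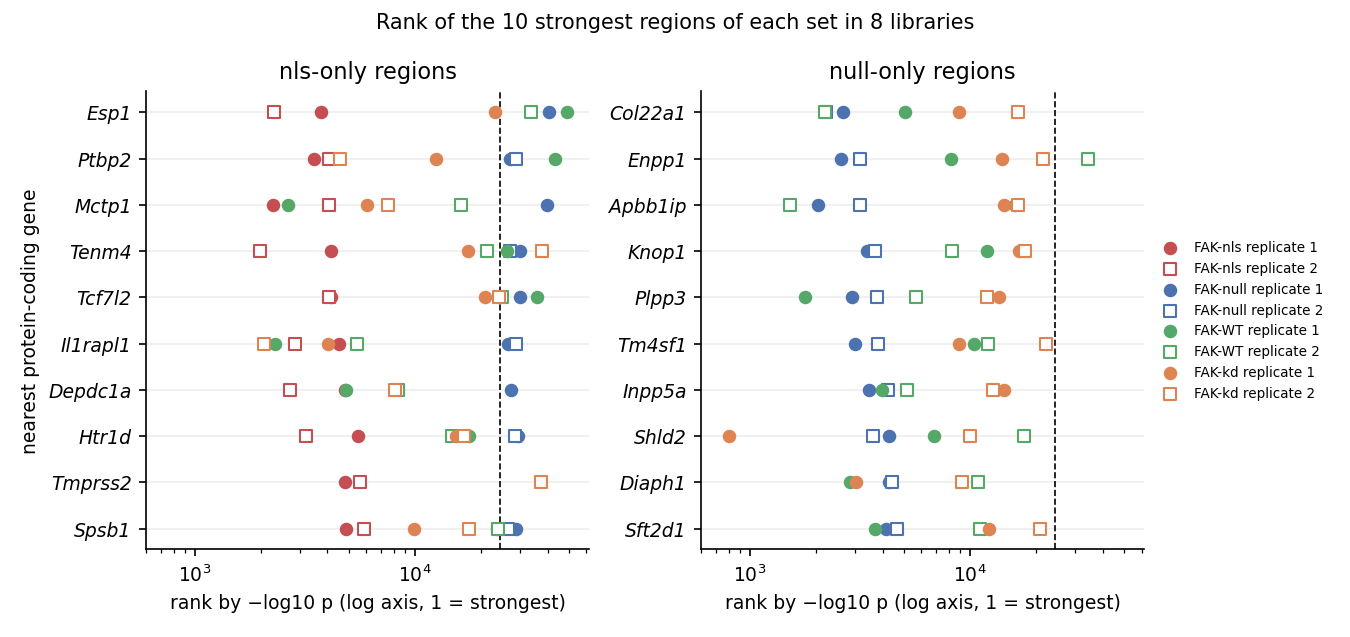
Rank by −log10 p (log axis, 1 is the strongest peak) of the 10 strongest nls-only (left) and null-only (right) regions in each of the 8 libraries, with the cutoff of 24383 as a dashed line and no point where a list holds no peak. FAK-null points on the left lie beyond the cutoff or are absent, as at *Esp1* (40718 and no peak), and FAK-nls points on the right are absent.

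Promoters, defined as the stretch between 500 bp before and 2000 bp after a transcription start, made up 665 of the nls-only regions (36.2%, 34.1 to 38.5) and 308 of the null-only regions (15.02%, 13.5 to 16.6). Their share was 34.3% among all 35286 regions, 48.7% among shared regions and 22.6% among regions called in any other combination of libraries. The null-only share lay below each of these. The nls-only share lay near that of all regions, below that of shared regions and above that of the other combinations. Per library the share was 41.9% and 41.6% in FAK-nls and 38.3% and 39.1% in FAK-null cells, and the groups did not overlap. With the strongest peaks chosen by pileup in place of −log10 p, the difference between the private sets was −0.226 percentage points, so that the higher promoter share of nls-only regions held for ranks by p and by fold enrichment (38.6 points) and not by pileup. It turned to −5.44 points with all deposited peaks, and was 1.39 at a minimum −log10 q of 3, 7.47 when 50% of a region had to be covered, and 8.96 and 10.2 when either FAK-nls library was left out, against 21.2 as reported. The 336 nls-only regions without a FAK-null peak had a promoter share of 12.5% (9.38 to 16.5), and the 2012 null-only regions without a FAK-nls peak had 14.7% (13.2 to 16.3), although the shorter FAK-nls lists make the latter a weaker condition. Of the 665 promoters in the nls-only set, 623 thus had a weaker peak in FAK-null cells. Regions with at least 20 CpG dinucleotides made up 28.4% of the nls-only and 5.12% of the null-only set, against 26.4% of all and 41.9% of shared regions. Median widths were 539 bp and 444 bp.

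Among nls-only promoters, the strongest was that of *Spsb1*, which encodes an adaptor of a ubiquitin ligase (ranks 4854 and 5833 in FAK-nls, 28622 and 26555 in FAK-null cells). *Sipa1l2*, which encodes a Rap GTPase-activating protein, followed with 6295 and 6192 against 25426 and 30391. *Gnb2*, which encodes a G protein beta subunit, had 7859 and 7598 against 36265 and 30591, and *Dusp5*, which encodes a nuclear ERK phosphatase, had 8169 and 7543 against 24847 and no peak. The FAK-null ranks of *Dusp5* and *Sipa1l2* in replicate 1 lay just past the cutoff. The null-only promoters next to *Apbb1ip* in strength were those of *Shld2*, a subunit of the shieldin complex in DNA repair (4288 and 3636), at *Popdc2* (3845 and 4850), at *Sorl1*, which encodes a sorting receptor (5020 and 5305), and of *Ccser2* (1956 and 5806).

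Motifs were sought in the central 500 bp of each region and compared outside promoters, where 1170 nls-only and 1743 null-only regions lay. The SOX letters CCATTGTT were in 60 nls-only (5.13%) and 22 null-only regions (1.26%), against 2.41% of shared and 2.54% of all regions outside promoters. RUNX letters (TGTGGTT) were in 20.9% and 14.1%, against 17.3% of all regions. The CTCF consensus went the other way, with 2.56% and 5.85%, against 4.20% of all. ETS letters (AGGAAGT or CGGAAGT) were in 16.2% and 20.1%, against 16.6%. AP-1 letters were in 51.7% and 55.4%, both near the 52.5% of all regions and under the 59.7% of shared regions, while a shuffled AP-1 control was in 12.0% and 12.3%. TEAD letters (GGAATGT) were in 11.7% and 9.58%, against 10.8% of all and 11.4% of shared regions. A match says that these letters are in the window and not that the factor binds there. Of 25 sets of letters counted, 2 of them shuffled controls, 9 were more frequent in nls-only and 16, both controls included, in null-only regions. Differences beyond 2 standard errors over regions were found for 2 of the former, SOX and RUNX, and for 5 of the latter. These 5 were CTCF, ETS, SP/KLF (4.53% and 6.25%), NRF2 or Bach (1.28% and 2.35%) and the E-box CAGCTG (26.2% and 29.7%).

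The SOX, RUNX, CTCF and ETS differences outside promoters (3.87, 6.74, −3.29 and −3.93 percentage points, nls-only minus null-only) kept their direction under other choices of peaks and when each library was left out, but their size did not always hold. Without FAK-nls replicate 1 the CTCF difference was −0.991 points. Without FAK-nls replicate 2 it was −0.563, and those of SOX and RUNX were 1.95 and 2.19. Without FAK-null replicate 2 those of RUNX and ETS were 4.10 and −2.54. With the 12000 strongest peaks the SOX, RUNX and CTCF differences were 1.95, 4.19 and −0.722. When 50% of a region had to be covered, those of CTCF and ETS were −1.81 and −1.65. Ranking by fold enrichment gave 3.64 for RUNX, and a minimum −log10 q of 3 gave −1.96 for CTCF and 10.8 for RUNX. Among regions with no peak of any strength in the other line RUNX and ETS were at 10.6 and −6.16. Within strata of GC content the SOX difference was 4.04, 2.51 and 5.81 points under 45%, from 45% to 50% and from 50% to 55%, and no private region outside promoters with more GC held the letters (61 nls-only and 151 null-only). RUNX, CTCF and ETS kept their direction in the first 2 of these strata and not in both of the others, where RUNX was at −0.199 and ETS at 0.551 from 50% to 55% and CTCF at 3.88 above. Library by library, SOX letters were in 2.03% and 2.096% of the strongest FAK-nls peaks and in 1.67% and 1.67% of the FAK-null peaks, and CTCF letters in 2.49% and 2.48% against 3.09% and 2.92%. The lines did not overlap in either, nor in RUNX letters (13.4% and 13.5% against 13.3% and 12.9%), but did in ETS letters (19.4% and 19.6% against 19.8% and 19.5%). They did not overlap in the shuffled controls either. The shuffled AP-1 control was at 10.0% and 10.1% against 10.3% and 10.3%, and the shuffled ETS control at 10.65% and 10.68% against 10.94% and 10.95%. A lack of overlap is therefore not particular to these motifs. Each pair of libraries was also compared through the regions outside promoters that the first library called and the second did not, and the reverse. For SOX the 4 pairs between lines differed by 1.90 to 2.43 percentage points, all higher in FAK-nls, and the 2 replicate pairs by 0.144 and 0.353. For CTCF the pairs between lines differed by −2.28 to −1.74 and the replicate pairs by 0.152 and 0.714 in size. For ETS these were −3.38 to −3.02 and 0.159 and 0.438. For RUNX the 4 differences of 1.29 to 4.73 overlapped the 1.54 and 2.66 of replicate pairs, and for AP-1 the −7.62 to −2.17 overlapped 2.87 and 4.22. Each pair between lines holds all the nls-only and null-only regions outside promoters, which replicate pairs exclude by definition. The 4 pairs also share libraries. The gaps between lines thus partly restate the private sets, and no conclusion against the spread between replicates is drawn from them. The shares of ETS letters in the peaks of single libraries overlapped as given above.

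Over all private regions, promoters included, AP-1 letters were in 37.4% of nls-only and 52.3% of null-only regions, against 39.3% of all. This gap of −14.8 percentage points shrank to −3.65 outside promoters, and it turned to 1.26 when the strongest peaks were chosen by pileup and to 7.29 with all deposited peaks. A minimum −log10 q of 3 turned it to 3.77. It was −6.51 when 50% of a region had to be covered and −9.07 without FAK-null replicate 1. Among promoters themselves 12.3% of the nls-only and 34.7% of the null-only regions held AP-1 letters, whereas SP/KLF letters (GGGCGGG), typical of CpG-rich promoters, were in 49.9% and 17.9%. For both motifs the null-only promoters lay between all promoters (13.9% and 49.95%) and all regions outside promoters (52.5% and 6.24%), whereas NF-Y letters (AGCCAAT) were in 10.1% of them, near the 10.3% of all promoters.

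**Figure D3:**
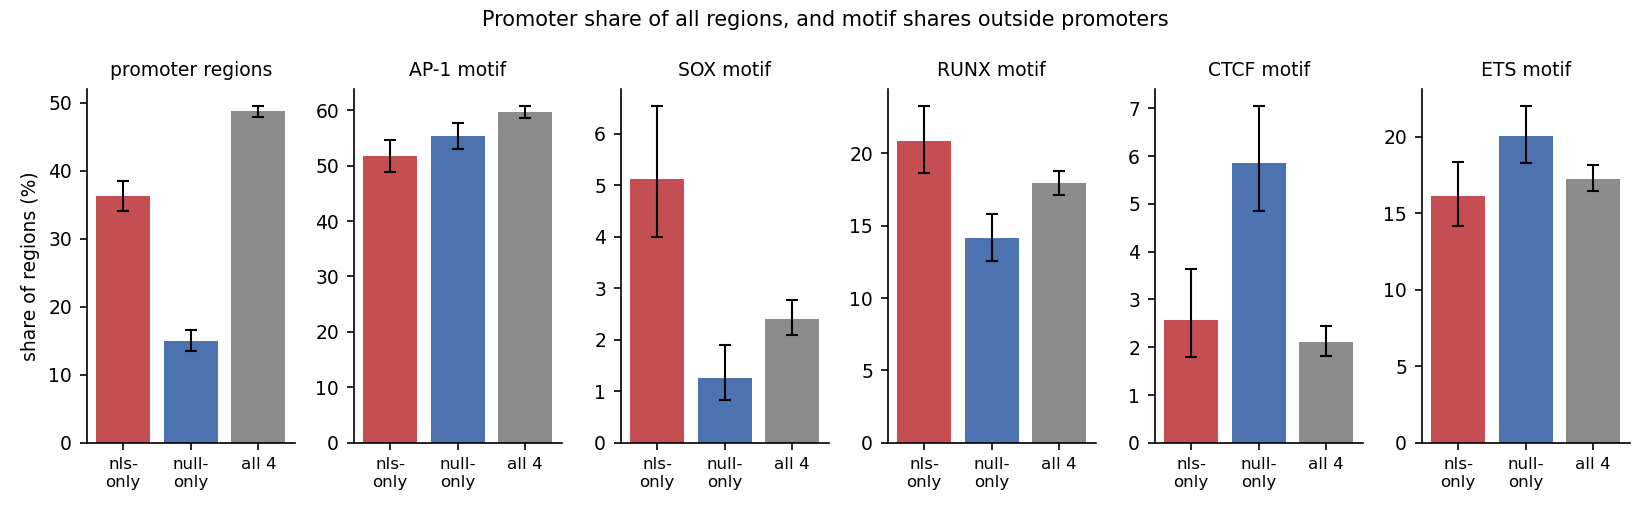
Share (%) of nls-only, null-only and shared (all 4) regions that are promoters, and share of regions outside promoters with AP-1, SOX, RUNX, CTCF or ETS letters, with 95% Wilson intervals over regions, each panel on its own axis from 0. SOX was in 5.13% of nls-only and 1.26% of null-only regions, and CTCF in 2.56% and 5.85%.

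To ask whether private regions followed other forms of FAK, they were looked up among the 24383 strongest peaks of the FAK-WT and FAK-kd libraries, which the choice of regions did not use. Of nls-only regions, 32.8% and 42.5% were called in FAK-WT replicates 1 and 2, and 41.6% and 37.8% in FAK-kd replicates 1 and 2. Of null-only regions, 58.8% and 51.5% were called in FAK-WT and 54.3% and 49.2% in FAK-kd cells. Both sets lay below all 35286 regions, of which 63.5% to 64.6% were called in each of these libraries. In each of the 4 libraries the null-only share was the higher, by 17.5 percentage points over the FAK-WT and 12.0 over the FAK-kd pair on average (−17.5 and −12.0 as nls-only minus null-only). Regions called only in a single FAK-nls library were found in the other lines at 14.2% to 18.4%, and those called only in a single FAK-null library at 21.9% to 30.02%, while shared regions were at 93.8% to 95.4%. Calls repeated in both libraries of a line were therefore found in other lines more often than single calls. In all 4 FAK-WT and FAK-kd libraries 166 nls-only regions (9.05%) and 414 null-only regions (20.2%) were called, and in none of them 485 (26.4%) and 310 (15.1%). Of all regions, 46.1% were called in all 4 and 18.4% in none.

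The order of the 2 sets in this comparison changed when a FAK-null library was left out, a step that alters both sets by construction. The size of the difference depended on all 4 libraries compared, on how private regions were chosen and on which peaks were looked up. The FAK-WT and FAK-kd differences were −29.1 and −15.7 by fold enrichment, and −8.85 and −16.8 at a minimum −log10 q of 3. They were −26.1 and −20.6 when 50% of a region had to be covered, and −31.3 and −30.3 for regions with no peak of any strength in the other line. When the full lists of the FAK-WT and FAK-kd libraries were searched, the differences narrowed to −2.75 and −1.16 percentage points, with null-only still the higher. Without FAK-null replicate 1 they were 9.83 for FAK-WT and 13.3 for FAK-kd, and without replicate 2 they were 6.31 and 12.8. Leaving out a FAK-null library changes both sets, since null-only regions then need only 1 FAK-null call and nls-only regions may be called in the library left out. Without FAK-nls replicate 1 the differences were −34.7 for FAK-WT and −32.2 for FAK-kd, and without replicate 2 they were −38.9 and −35.4. Outside promoters the difference in FAK-kd was −15.8. Nls-only promoters were called in FAK-WT replicate 1 at 25.4% and in replicate 2 at 51.6%, a gap between replicates larger than the mean gap between the sets.

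**Figure D4:**
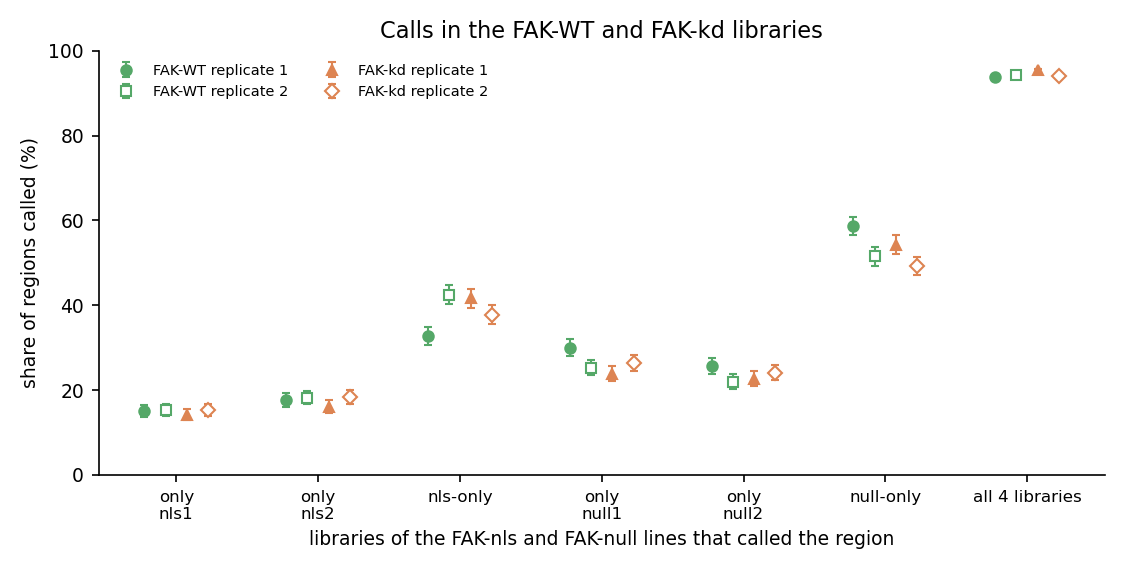
Share (%) of regions called in the FAK-WT and FAK-kd libraries, by the FAK-nls (nls1, nls2) and FAK-null (null1, null2) libraries that called the region, with 95% Wilson intervals over regions. Null-only regions lie at 49.2% to 58.8%, nls-only regions at 32.8% to 42.5%, regions of a single library at 14.2% to 30.02% and shared regions at 93.8% to 95.4%.

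Several genes had private regions of a single set clustered around them. Nearest to at least 4 nls-only and no null-only regions were *Rarb*, which encodes a retinoic acid receptor, *Galnt13*, a mucin-type glycosyltransferase, *Prmt6*, an arginine methyltransferase, and *Rere*, a transcriptional corepressor, with 4 each. All 4 regions of *Galnt13* and of *Prmt6* had no peak in either FAK-null list. The strongest at *Galnt13* (chr2:54503072-54503371) ranked 11382 and 4411 in FAK-nls cells, and that at *Prmt6* (chr3:110700174-110700546) 16563 and 10500. At *Rarb*, the strongest (chr14:17024266-17025380) ranked 7999 and 8266 in FAK-nls cells, against 35786 and no peak in FAK-null cells, and was called in all 4 FAK-WT and FAK-kd libraries.

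In the opposite direction 14 genes qualified, 3 with 5 regions and 11 with 4, and 8 are given, with ties in number settled by the best rank of a region. *Epha4*, which encodes an ephrin receptor, *Plcb1*, a phospholipase C, and *Mical2*, an actin-oxidising enzyme that acts in the nucleus on SRF signalling, had 5 null-only regions each. *Hpcal1*, *Ptprm*, *Nrg1*, *Nav2* and *Nfil3* had 4 each. Among their regions only 1, at *Nav2* (chr7:49275501-49276003), had a peak in a FAK-nls list, at rank 24537 in replicate 2. The strongest regions of *Epha4* (chr1:77846006-77846618) ranked 7893 and 5655, of *Hpcal1* (chr12:17722775-17723322) 5886 and 6617, and of *Nrg1* (chr8:32334462-32334882) 8839 and 4709 in FAK-null cells. All 3 were called or ranked in every FAK-WT and FAK-kd list, at ranks from 4721 to 35180.

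Gene lists for pathways of these cells were read by the nearest protein-coding gene, against the 5.20% nls-only and 5.81% null-only among all regions. Notch pathway genes had 11 null-only and 2 nls-only of 65 regions (16.9% and 3.08%). The null-only regions lay at *Maml2* and *Rbpj*, co-activator and DNA-binding partner of cleaved Notch (3 each), at *Notch2* (2), and at *Notch1*, *Nrarp* and *Hes1*. The strongest, in *Maml2* (chr9:13668806-13669181), ranked 7419 and 5914 in FAK-null cells, 24460 in FAK-nls replicate 2 and nowhere in replicate 1. At *Rbpj* (chr5:53509336-53509875) the ranks were 10197 and 10876 in FAK-null cells. The windows of 5 Mb that hold these regions were rich in null-only regions, with 11 null-only and 1 nls-only of 52 regions around *Maml2* and 6 and 1 of 57 around *Rbpj*. Place on the chromosome was not separated from membership of the list. The nls-only regions lay far upstream, at −155096 bp from the start of *Hes1* (7881 and 9112 in FAK-nls cells) and −462993 bp from that of *Jag1* (20499 and 22895).

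EGF receptor family and ligand genes had 8 null-only and 1 nls-only of 73 regions (10.96% and 1.37%). All 8 lay at ligand genes, 4 at *Nrg1*, 2 at *Areg*, which encodes amphiregulin, and 2 at *Btc*, which encodes betacellulin. The *Btc* region chr5:91311667-91312151 ranked 3995 and 10374 and the *Areg* region chr5:91156610-91157244 ranked 12351 and 10929 in FAK-null cells, with no peak in FAK-nls lists. The nls-only region was near *Errfi1*, which encodes an inhibitor of the EGF receptor (22963 and 15544). No region at a receptor gene of the list was private. The window of 5 Mb that holds these *Btc* and *Areg* regions had 10 null-only and 2 nls-only of 84 regions, so here too place and list were not separated.

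*Rnd3* had private regions of both kinds: its promoter (chr2:51149032-51149337) ranked 11854 and 11111 in FAK-null cells with no FAK-nls peak, whereas the distal window printed above was called in FAK-nls cells alone.

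Focal adhesion adaptors and kinases, the proteins that FAK works with, had 8 nls-only and 11 null-only of 196 regions (4.08% and 5.61%), close to all regions. Of the nls-only regions 5 were promoters, among them those of *Fermt2*, which encodes kindlin-2 (13825 and 20340 in FAK-nls, 28629 and 25452 in FAK-null cells), and of the Src family kinase gene *Yes1* (23869 and 22957 against 32070 and 32255). Of the null-only regions 2 were promoters, at *Tns1* (9840 and 22625) and *Tns3* (12878 and 10669), which encode tensins. The strongest null-only region of the list lay in *Parva* (chr7:112458400-112458920), which encodes parvin, at 8017 and 6912 in FAK-null cells.

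Keratinocyte identity factors had 9 nls-only and 14 null-only of 181 regions (4.97% and 7.73%). All 4 private regions of *Klf4*, a factor of terminal differentiation, were null-only, the strongest (chr4:55451485-55452244) at 13080 and 16858. *Sox2* had 3 null-only and 1 nls-only region, *Sox9* 1 of each, and *Runx1* 2 nls-only and 1 null-only region. TGF-beta and BMP genes had 11 nls-only and 10 null-only of 165 regions (6.67% and 6.06%). *Inhba*, *Ltbp1* and *Smad3* had regions of both kinds, *Id2*, a BMP target, had 4 null-only regions and no nls-only region, and *Bmp2*, *Tgfb2* and *Tgfbr2* had 2 nls-only regions each and no null-only region. Wnt genes had 8 and 5 of 104 regions (7.69% and 4.81%), with *Tcf7l2* at 3 nls-only and 1 null-only region. MAP kinase feedback genes had 10 and 8 of 131 regions (7.63% and 6.11%), and *Dusp5*, *Dusp6* and *Dusp10* had regions of both kinds.

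Of the HOX genes 3 promoters of 16 regions were nls-only and no region was null-only. These were at *Hoxa4* (19582 and 19021 in FAK-nls, 34726 and 29834 in FAK-null cells), *Hoxb9* (17618 and 12681 against 39978 and 31994) and *Hoxd3* (14339 and 14717 against 31828 and no peak). Interferon and MHC class I genes had 3 null-only and 0 nls-only of 34 regions, at *Irf1*, *Irf9* (its promoter at 6961 and 12527 in FAK-null cells) and *Mx1*. AP-1 factor genes had 4 nls-only and 2 null-only of 81 regions (4.94% and 2.47%), at *Atf3*, *Bach2*, *Jdp2* and *Mafk* and at *Atf3* and *Fosl2*, and ETS factor genes had 2 and 3 of 94. Among marker lists of cell types, fibroblast genes had 3 nls-only regions (*Col1a1*, *Col3a1* and *Dcn*) and no null-only region of 43, and simple epithelial markers 2 nls-only regions (*Epcam* and *Krt8*) of 10. Endothelial markers had 3 nls-only regions of 15, all at *Emcn*, melanocyte markers 3 nls-only and 1 null-only of 18, immune markers 2 of each of 17, and squamous markers 1 null-only region of 15, at *Itgb4*. The nls-only share was 6.98% for fibroblast, 20% for simple epithelial, 20% for endothelial and 16.7% for melanocyte markers. It was 11.8% for immune and 0% for squamous markers, against 5.20% of all regions. No conclusion on cell type is drawn from these few regions. No region of 18 at housekeeping genes was private. With so few regions in a list these counts are descriptions.

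At 9 of the genes linked to FAK in the study's text, regions within the gene and 10 kb upstream were read out. *Ptk2*, the deleted gene, had 9 regions, 6 of them called in all 4 libraries and none private, so the peaks at *Ptk2* gave no check of the labels. By nearest gene a null-only region lay −19245 bp from its start (chr15:73442357-73442694), at ranks 23595 and 20203 in FAK-null cells, the former close to the cutoff, with no FAK-nls peak. *Il33*, which encodes a cytokine that also acts in the nucleus, had 3 regions and none was private. The region at −7460 bp from the nearest start had calls in each FAK-nls library and in FAK-null replicate 1, and had rank 26633, past the cutoff, in FAK-null replicate 2. That at −3184 bp was called in FAK-null replicate 1 alone, at rank 10446. That at 616 bp was called in FAK-nls replicate 1 alone, at rank 23172. The replicates of a line thus disagreed at each of these *Il33* regions. The nearest private region was null-only and lay −12989 bp from the start (chr19:29911907-29912343), at ranks 15015 and 13526.

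*Ccl5*, which encodes a chemokine, had a null-only region (chr11:83527941-83528564) at ranks 23704 and 17291, the former close to the cutoff. *Cdkn1a*, which encodes the cell cycle inhibitor p21, had a nls-only region at its promoter (chr17:29093676-29093898), at ranks 17726 and 18546 in FAK-nls cells. The FAK-null ranks there were 25369 and 25250, so both missed the cutoff narrowly. *Jun*, *Fosl1*, *Vcam1* and *Cxcl10* had no private region within these limits, and the promoter regions of *Jun* and *Fosl2* were called in all 4 libraries. The promoter of the chemokine gene *Ccl2* was null-only, at 14311 and 18556.

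To test graded differences, fold enrichment was compared between the lines at 15203 shared regions with 1 peak in each library, by limma on quantile-normalised log2 values. No region passed an adjusted p of 0.05 in either direction. Unadjusted p values under 0.05 were found for 1157 regions higher and 1203 lower in FAK-nls cells, 15.5% of those tested. The lowest adjusted p was 0.0518, at a region near *Gm13283* (chr4:88757536-88757875), where log2 fold enrichment was 2.49 and 2.63 in FAK-nls and 3.73 and 3.34 in FAK-null cells, a difference of −0.97 (SE 0.13). Among the others with the lowest p were regions at *Nsun6* (−0.88, adjusted p = 0.119), at *Fyb*, which encodes an adaptor of integrin signalling in T cells (−0.77, 0.125), and near *Il1rl1*, which encodes the receptor of IL-33 (−0.81, 0.125). In the direction of FAK-nls they were at the promoters of *Zbtb7a* (0.62, adjusted p = 0.119) and *Mknk2*, which encodes a kinase that phosphorylates eIF4E downstream of ERK (0.59, 0.130). With other settings of limma the counts were 712 higher and 680 lower on log2 pileup, 123 and 141 on −log10 p, 4 and 6 with median centring, and 63 and 157 with a replicate block. Leaving out FAK-nls replicate 1 gave 151 and 167, and replicate 2 gave 170 and 179, where the lone library is assumed to vary like the FAK-null pair. The median difference in log2 fold enrichment was 0.07 at promoters and −0.05 elsewhere.

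Pileup of shared regions shifted between the lines over long stretches of chromosome, and private regions went with these shifts. In 243 windows of 10 Mb with at least 20 shared regions, the median log2 pileup relative to the library median was more than 0.15 lower in FAK-nls cells in 50 windows and more than 0.15 higher in 43. Chromosome 7 stood out: its shared regions had a median log2 pileup of 0.06 and 0.06 above the library median in the FAK-nls, and of 0.28 and 0.27 in the FAK-null libraries, with FAK-WT at 0.13 and 0.17 and FAK-kd at 0.06 and 0.02. All 15 of its windows were lower in FAK-nls cells by pileup. By fold enrichment their shifts went both ways, from −0.190 at 50 to 60 Mb to 0.152 at 10 to 20 Mb. Chromosome 7 held 89 nls-only and 189 null-only regions, whereas chromosome 11 held 175 and 108. The window at 110 to 120 Mb of chromosome 13 had the largest positive shift (0.52) with 25 nls-only and 2 null-only regions. Fold enrichment, which divides by local background, shifted by 0.04 there. Across windows, which share libraries, the Spearman correlation of the shift with the number of nls-only minus null-only regions was 0.632 for pileup, 0.367 for fold enrichment and −0.0064 for GC content, given as a description.

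Where the shift was more than 0.15 downward in FAK-nls cells there were 207 nls-only and 487 null-only regions, and where it was upward 561 and 230. In the 150 windows within 0.15 there were 1016 and 1281. Clusters named above lay in windows of both kinds: the shift was 0.32 at *Prmt6*, 0.33 at *Rere*, −0.31 at *Hpcal1*, −0.29 at *Nav2*, −0.20 at *Epha4* and −0.19 at *Mical2* and *Nrg1*, but −0.17 at *Galnt13*, opposite in direction to its nls-only regions, −0.15 at *Nfil3*, −0.09 at *Rarb*, −0.01 at *Plcb1* and 0.03 at *Ptprm*. Whether the number of copies of these stretches differs between the lines was not tested. Within the 150 windows the differences of the 2 sets were much as in the whole genome, with 21.9 percentage points for promoters, −15.7 for AP-1 over all regions, 3.32 for SOX, 7.80 for RUNX and −3.10 for CTCF outside promoters, and −20.0 and −13.3 for calls in FAK-WT and FAK-kd. Without chromosome 7 the promoter shares were 36.0% and 14.9%, and the SOX shares 5.19% and 1.20%.

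**Figure D5:**
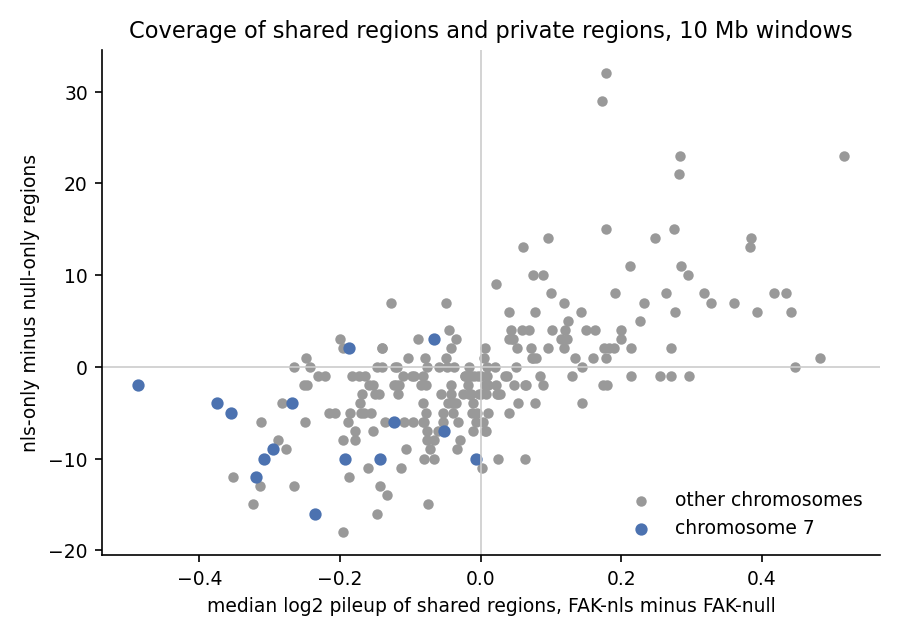
Each point is a window of 10 Mb with at least 20 shared regions, showing the median log2 pileup of shared regions in FAK-nls minus FAK-null cells (x axis) and the number of nls-only minus null-only regions (y axis). Windows with higher FAK-nls pileup hold more nls-only regions (Spearman correlation 0.632 over 243 windows), and the 15 windows of chromosome 7 (blue) all lie below 0 on the x axis.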

How the data were processed

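The data are the peak lists of 8 ATAC-seq libraries, grouped by line from the sample labels, of which the 2 FAK-nls and 2 FAK-null libraries were compared. The authors aligned reads to mm10 with the bcbio pipeline and called broad peaks in each library with MACS2 (version 2.1.1 in the submitters' processing notes), without pooling replicates. Handling of duplicate reads is not given in the sources used here. For each peak the deposited lists give the pileup (coverage signal in reads), the −log10 p and −log10 q, and the fold enrichment, a ratio of pileup to local background. The authors give 0.05 as their threshold on the q-value, while the deposited −log10 q went down to 1.00 in a FAK-nls list.

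Autosomal, X and Y peaks were ranked by −log10 p and limited to 24383 per library. Peaks that shared 1 bp or more were joined into a region. Regions were assigned to the nearest start of a protein-coding transcript by their centre, and to promoters over all transcript starts (GRCm38, GENCODE M21). Motifs were exact matches to a consensus on both strands in the central 500 bp. They could overlap each other, as AP-1 does with the longer NRF2 or Bach consensus. The analysis used Python 3.11.15, pandas 2.3.3, numpy 2.4.6, R 4.3.3 and limma 3.58.1. The limma test took log2 fold enrichment, quantile-normalised, in regions called in all 4 libraries with 1 peak each (168 others left out), with Benjamini-Hochberg adjustment over all regions. Intervals are 95% Wilson intervals over regions. They cover neither depth nor the spread between cultures.

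Named regions are the 10 of each set with the best worst rank over the 2 libraries that called them, the 5 strongest promoters, genes nearest to at least 4 regions of one set and none of the other (at most 8 per set), the 10 shared regions of each direction with the lowest adjusted p, of which some are given, and 9 of the genes named in the study's text. To these were added, after values were seen, the 5 strongest regions of each set without a peak in the other line, windows with SOX or CTCF letters and members of gene lists. The members and lists were chosen with earlier results of these data known. The study calls the replicates biological, and p-values measure the spread between these libraries only. Alternatives were other peak numbers, rankings, minimum q, overlap and motif windows, regions set to 500 bp, autosomes, GC strata, other limma settings and leaving out each library. GC strata for motifs other than AP-1, strata by promoter in the look-up of other lines, full lists of those lines and windows without a pileup shift were chosen after seeing the data.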

Additional observations from a re-analysis of the deposited data

How the results depend on the processing

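Presence of a call depends on depth and on the cutoff, the FAK-nls lists are the shortest, and with 2 libraries a line no exact permutation test of a single value can pass 0.05. The SOX, RUNX, CTCF and ETS differences outside promoters kept their direction under other choices of peaks and without each library, whereas the promoter and AP-1 differences did not under all of these. Apart from what each setting changes by construction, the causes were not tested. In this paragraph differences are nls-only minus null-only in percentage points, in the order promoters, AP-1 over all regions, calls in FAK-WT and calls in FAK-kd (main values 21.2, −14.8, −17.5 and −12.0).

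With all deposited peaks there were 347 nls-only and 7278 null-only regions, and the first 2 differences turned to −5.44 and 7.29. A minimum −log10 q of 3 gave 193 and 6211 regions and 1.39, 3.77, −8.85 and −16.8. Ranking by fold enrichment gave 38.6, −21.6, −29.1 and −15.7, and ranking by pileup −0.226, 1.26, −21.8 and −21.2. With the 12000 strongest peaks there were 1185 and 1293 regions, with 29.3 for promoters, −19.6 for AP-1 and −15.7 for FAK-kd. When 50% of a region had to be covered, there were 3741 null-only regions and 7.47, −6.51, −26.1 and −20.6. The 336 nls-only regions with no peak of any strength in the other line, set against the 2012 null-only regions without a peak in the FAK-nls lists, a weaker condition because those lists are shorter, gave −2.21, −0.748, −31.3 and −30.3. The AP-1 difference was −3.65 outside promoters, −5.21 at GC under 45%, −2.79 at 45% to 50%, −16.2 at 50% to 55% and −22.5 at 55% or more. Calls in FAK-kd outside promoters differed by −15.8. Full lists of the other lines gave −2.75 for FAK-WT and −1.16 for FAK-kd. Leaving out each library in turn gave 2956 to 4390 nls-only and 3220 to 4206 null-only regions, and differences of 8.96 to 24.9 for promoters, −16.7 to −9.07 for AP-1, −38.9 to 9.83 for FAK-WT and −35.4 to 13.3 for FAK-kd. The last 2 turned to 9.83 and 13.3 without FAK-null replicate 1, and to 6.31 and 12.8 without FAK-null replicate 2.

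For shared regions tested with limma, counts higher and lower in FAK-nls cells were 4 and 6 with median centring, 712 and 680 on log2 pileup, 123 and 141 on −log10 p, 6 and 10 with all 8 libraries fitted, and 0 and 1 in regions above the median fold enrichment. Of the log2 pileup calls, 57.6% of the higher lay in windows shifted upward by more than 0.15, which hold 19.2% of the regions tested, and 45.1% of the lower in windows shifted downward, which hold 16.2%. The shift of a window is taken from the pileup of shared regions too, so part of this excess is fixed by construction. Leaving out a library gave 0 to 170 higher and 0 to 179 lower regions. The replicate block gave 63 and 157. Deviations of libraries with the same number were not correlated across shared regions (r = −0.0023), so these values showed no pairing by number. Whether libraries with the same number were prepared together is not stated in the labels. Within strata of GC content outside promoters, chosen after seeing the data, RUNX turned to −0.199 and ETS to 0.551 at 50% to 55%, and CTCF to 3.88 at 55% or more, where there were 61 nls-only and 151 null-only regions. Other motif windows were run for AP-1 alone. Of single motifs and regions, SP/KLF outside promoters turned to 3.81 by fold enrichment and 0.00977 with 12000 peaks, and the regions of *Rere* at chr4:150269271-150269991 and of *Rarb* at chr14:16944275-16944912 had 1 more call in FAK-null than in FAK-nls libraries (a difference of −1, against 2 in the reported calls) with a minimum −log10 q of 3.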
